A study of Homo sapiens with 12 samples.

Results

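The 9 genes described here encode secreted signalling proteins: the chemokines CCL2 and CXCL12, the colony stimulating factor CSF1, the interleukin 6 family cytokines IL11 and LIF, and the transforming growth factor beta (TGF-beta) superfamily ligands TGFB1, TGFB2, TGFB3 and INHBA. They were matched by symbol among the 63925 genes of the count files, and all 9 passed the filter on low counts that left 17819 genes for testing. The list was chosen by hand around CCL2, IL11 and TGFB3, which were selected on their measured counts in these libraries, lower after dexamethasone than in vehicle. For these 9 genes the dexamethasone contrasts are therefore given as values without a test.

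Polyadenylated RNA was sequenced from neural cultures grown for 10 weeks from the human embryonic stem cell lines H9 and H1 by a dual SMAD inhibition protocol. For each line, 3 sister cultures received 1 µM dexamethasone, a synthetic glucocorticoid, for 6 h and 3 received the DMSO vehicle, so that vehicle and dexamethasone groups of H9 and of H1 are compared. All 4 groups shared a neurobasal medium with B-27 supplement, ascorbic acid, cyclic-AMP, BDNF and GDNF, and the stem cells had been kept on mouse embryonic fibroblast feeders. Each line is the descendant of 1 embryo, and since all cultures of a group are sister cultures, a difference between lines cannot be told apart from one between differentiation runs.

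Glucocorticoids bind the glucocorticoid receptor, which raises some genes from its DNA elements and lowers many inflammatory genes driven by the transcription factors AP-1 and NF-kB. CCL2 draws monocytes through the receptor CCR2, and CXCL12 guides migrating neurons and progenitors through CXCR4. IL11 and LIF signal through the shared receptor chain IL6ST to JAK kinases and STAT3. TGF-beta ligands are secreted in latent form and, once activated, signal through paired type I and type II receptors to SMAD2 and SMAD3, the branch that dual SMAD inhibition blocks together with the bone morphogenetic protein branch at the start of neural induction.

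Total counts were 14751168 to 27505804 per library. In H9 vehicle culture 3 mitochondrially encoded genes held 0.607% of the counts, and in the other 11 libraries 2.91% to 5.64%. The root mean square log2 distance of this library to its group mean was 0.569, and the highest among the others was 0.341. Results that rest on it are given with and without it. FKBP5, a textbook target of the glucocorticoid receptor, was 2.35 ± 0.11 (SE) log2 units higher after dexamethasone over both lines (edgeR's quasi-likelihood test, Benjamini-Hochberg adjusted p = 8.34e-07).

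Markers of neurons summed to 3069 to 5116 CPM (the usual per-library scaling of read counts, with TMM factors) and those of radial glia and progenitors to 4267 to 7937, the highest being H9 vehicle culture 3. That highest sum rests on NES, at 5541 CPM in this library and 876 to 1206 CPM in the other libraries. VIM, HES1 and FABP7 had their lowest values of all 12 libraries there (2101, 19.4 and 147 CPM). PAX6 had its lowest H9 value there (129 CPM). SOX2, a progenitor marker, was listed at 0 in all 12 libraries, although the other 5 markers of its list had counts. The neuronal marker TUBB3 had 0.165 to 0.883 CPM where MAP2 had 1300 to 1823 CPM. A gene listed at or near 0 in these files is therefore not read as absent, and the part of read assignment in such values was not tested. Markers of mesenchymal and fibroblast cells summed to 210 to 381 CPM in H9 and to 1444 to 3269 CPM in H1, and proliferation markers to 54.8 to 86.5 CPM in H9 and 348 to 407 CPM in H1. Of the 8 mesenchymal markers 4 passed as lower in H9 than in H1 vehicle (edgeR adjusted p under 0.05, reached by 46.9% of all genes tested). TWIST1 (1 of 8) passed as higher in H9 (means 2.43 and 0.308 CPM), and LUM, DCN and PDGFRB overlapped between the lines. Astrocyte markers summed to 680 to 1163 CPM in H9 and 520 to 639 CPM in H1, pluripotency markers to 2.00 to 5.38 and 0.932 to 1.64 CPM, and choroid plexus markers to 15.4 to 137 and 4.12 to 15.7 CPM. Of the 6 astrocyte markers 3 passed as higher in H9 vehicle, while GFAP, S100B and GJA1 overlapped between the lines. The pluripotency sum was higher in H9 through DPPA4 (vehicle means 3.97 CPM in H9 and 0.144 CPM in H1). LIN28A went the other way (0.479 and 1.17 CPM), and POU5F1 was listed at 0 in all 12 libraries. The microglia and macrophage list summed to 0.148 to 0.883 CPM with AIF1 at 0 throughout, and the endothelial list to 3.51 to 7.12 CPM. In such bulk samples, fewer cells of a type and less RNA per cell cannot be told apart.

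**Figure D1:**
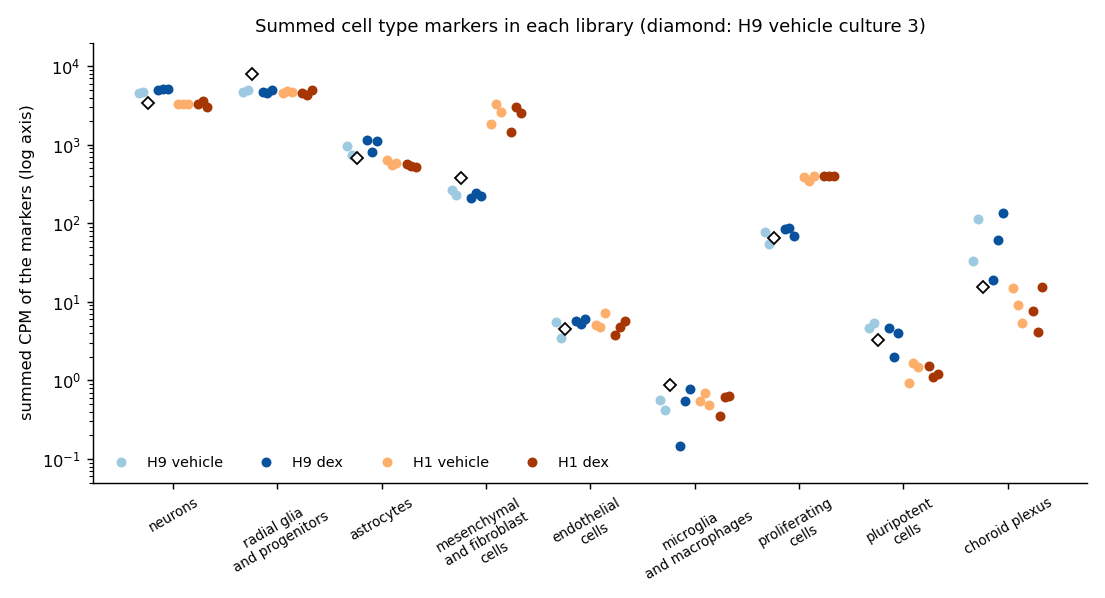
Summed TMM-scaled CPM of each marker list (log axis), 1 point per library and the diamond for H9 vehicle culture 3. The mesenchymal and proliferation sums of the H1 libraries all lie above those of the H9 libraries, and the microglia sums lie below 1 CPM.

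CCL2 and CXCL12 are the chemokines of the set. CCL2 (ENSG00000108691.9, chr17:34255218-34257203, plus strand) encodes a chemoattractant for monocytes that astrocytes and other neural cells can also make. Its TMM-scaled level was 89.9, 73.6 and 12.8 CPM in H9 vehicle cultures 1, 2 and 3, and 61.7, 53.7 and 72.2 CPM in the H9 dexamethasone cultures. The 3 treated H9 cultures were below vehicle cultures 1 and 2 and above vehicle culture 3. In H1 the vehicle cultures had 43.1, 44.3 and 48.9 CPM and the dexamethasone cultures 23.2, 28.5 and 27.8 CPM, so that every treated culture lay below every vehicle culture. The log2 difference between dexamethasone and vehicle was -0.78 ± 0.46 (SE) in H1 and 0.08 ± 0.46 in H9. Leaving out H9 vehicle culture 3 gave -0.39 ± 0.12 in H9, -0.78 ± 0.11 in H1, and -0.58 ± 0.08 as the mean over both lines. The direction of the CCL2 value in H9 thus rests on that 1 library, which held 188 CCL2 reads where its sister cultures held 2218 and 1764.

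CXCL12 (ENSG00000107562.16, chr10:44370165-44386493, minus strand) encodes the ligand of CXCR4 and of the scavenging receptor ACKR3. Its level was 21.7, 15.7 and 10.8 CPM in the H9 vehicle cultures and 17.6, 12.4 and 15.1 CPM in the H9 dexamethasone cultures. The H1 vehicle cultures had 4.74, 10.8 and 3.12 CPM and the H1 dexamethasone cultures 4.36, 7.34 and 4.61 CPM. Vehicle and dexamethasone cultures overlapped in both lines, with log2 differences of -0.11 ± 0.38 in H9 and -0.20 ± 0.40 in H1, the latter turning to 0.47 without H1 vehicle culture 2. The 2 H1 cultures numbered 2 had the highest CXCL12 of their groups and also the highest mesenchymal marker sums, 3269 CPM in vehicle and 3055 CPM in dexamethasone. The part of that marker sum in the CXCL12 values was not tested.

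CSF1 (ENSG00000184371.13, chr1:109910242-109930992, plus strand) encodes the growth factor that microglia need for survival. It was the steadiest of the set, at 61.7, 54.9 and 64.6 CPM in H9 vehicle, 62.9, 49.4 and 61.4 CPM in H9 dexamethasone, 61.2, 53.6 and 58.2 CPM in H1 vehicle, and 51.7, 50.8 and 57.0 CPM in H1 dexamethasone. All 4 groups overlapped, and the log2 difference with dexamethasone was -0.06 ± 0.11 in H9 and -0.12 ± 0.11 in H1.

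IL11 (ENSG00000095752.6, chr19:55364389-55370463, minus strand) encodes a cytokine of the interleukin 6 family that fibroblasts and epithelial cells make in response to TGF-beta. The 250 bases before its RefSeq start, chr19:55370464-55370713 on the minus strand (GRCh38.p14), are shown because IL11 had the lowest log2 values of the set, with matches to an AP-1 motif and to GC boxes in capitals.
IL11: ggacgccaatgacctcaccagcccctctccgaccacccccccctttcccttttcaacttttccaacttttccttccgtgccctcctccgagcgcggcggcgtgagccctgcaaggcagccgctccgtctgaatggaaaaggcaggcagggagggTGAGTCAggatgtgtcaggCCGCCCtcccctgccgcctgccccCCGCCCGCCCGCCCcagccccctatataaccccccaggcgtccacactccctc
The AP-1 motif TGANTCA matched at bases -96 to -90 from the start, and 6.59% of the 34943 promoters of the RefSeq table hold such a match. The GC box GGGCGG matched on the other strand at 4 places that begin at -77, -53, -49 and -45, the last 3 of which overlap, and 42.5% of promoters hold a match. The window held no match on either strand to the NF-kB motif GGANTTTCC, the core of the glucocorticoid response element ACANNNTGT, the STAT motif TTCNNNGAA, the SMAD motif CAGACA or the TATA box TATAAA, which 1.46%, 4.62%, 6.56%, 13.6% and 10.8% of promoters hold. A match is a run of exactly these letters only, so the run tatataa near the end of the window was not counted. Factor binding was not measured.

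IL11 was the gene of the set with the fewest reads, 28 to 88 per library. Its level was 3.57, 3.21 and 4.01 CPM in the H9 vehicle cultures and 2.52, 2.00 and 2.95 CPM in the H9 dexamethasone cultures. In H1 it was 2.16, 2.94 and 3.28 CPM in vehicle and 1.08, 1.65 and 1.33 CPM in dexamethasone. In each line the highest treated culture lay below the lowest vehicle culture. The log2 difference was -0.52 ± 0.22 in H9, -1.05 ± 0.23 in H1 and -0.78 ± 0.16 as the mean of both lines, and without H9 vehicle culture 3 that mean was -0.75 ± 0.15.

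LIF (ENSG00000128342.4, chr22:30240447-30246851, minus strand) encodes leukemia inhibitory factor, which keeps neural stem cells and drives astrocyte formation. It was at 26.3, 22.9 and 25.1 CPM in H9 vehicle and 18.9, 19.1 and 24.1 CPM in H9 dexamethasone. H1 vehicle cultures had 17.6, 16.9 and 19.9 CPM and H1 dexamethasone cultures 11.3, 16.0 and 15.1 CPM. The H1 treatments did not overlap, while 1 treated H9 culture lay above 1 vehicle culture. The log2 difference was -0.26 ± 0.15 in H9 and -0.36 ± 0.15 in H1. The annotation places 2 antisense genes over LIF, whose reads cannot be told apart from its own where counting ignored strand.

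**Figure D2:**
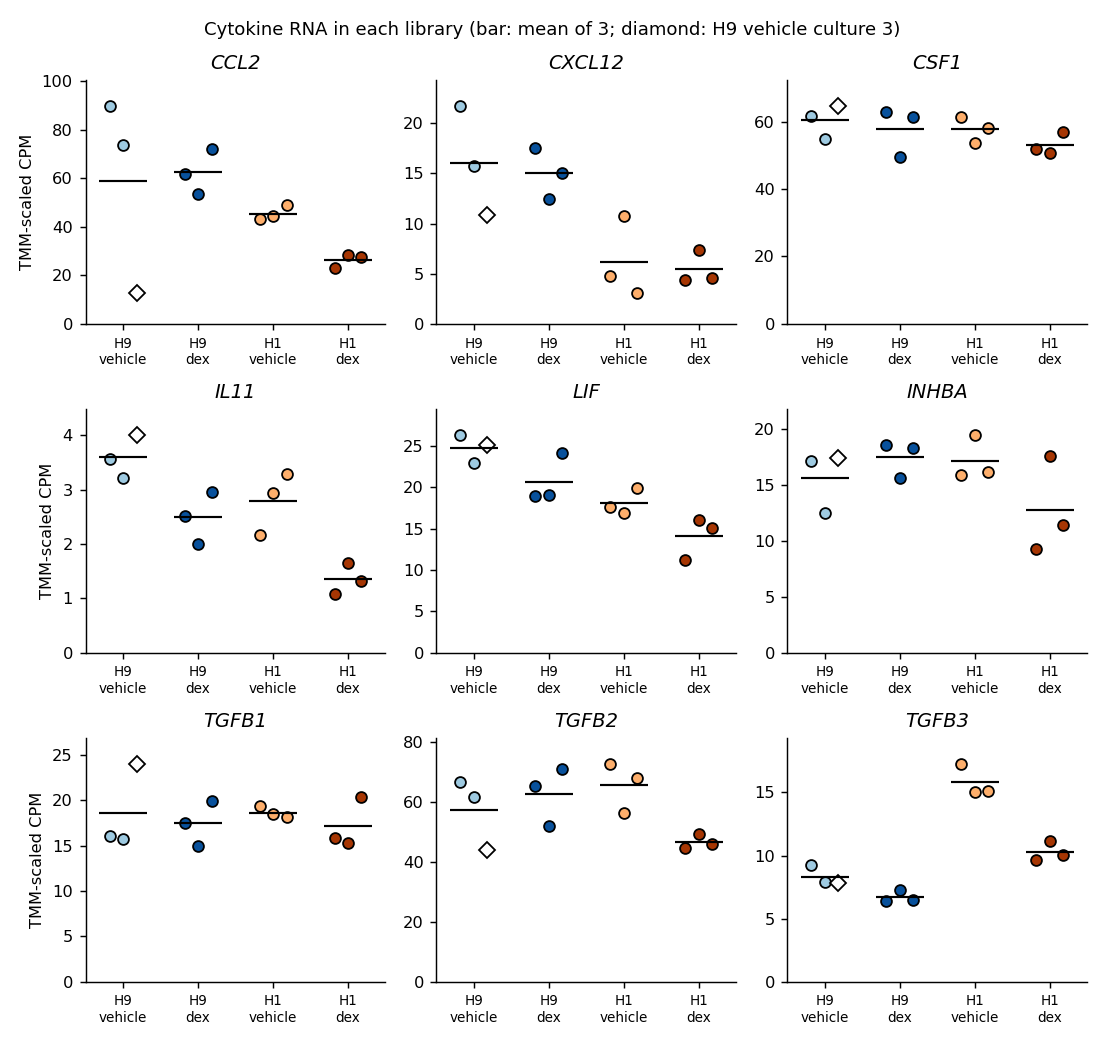
TMM-scaled CPM of the 9 cytokine genes in each library, by line and treatment, with H9 vehicle culture 3 marked. The IL11 and TGFB3 points of the treated cultures lie below all vehicle points of the same line, and the CCL2 point of H9 vehicle culture 3 at 12.8 CPM is the lowest CCL2 value of all 12 libraries.

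TGFB3 (ENSG00000119699.7, chr14:75958099-75982991, minus strand) encodes the third TGF-beta isoform. RefSeq lists 2 starts for it, and the 250 bases before each, chr14:75983012-75983261 and chr14:75981996-75982245 on the minus strand (GRCh38.p14), are shown because TGFB3 is one of the genes the list was built around and differed between the lines.
TGFB3, first window: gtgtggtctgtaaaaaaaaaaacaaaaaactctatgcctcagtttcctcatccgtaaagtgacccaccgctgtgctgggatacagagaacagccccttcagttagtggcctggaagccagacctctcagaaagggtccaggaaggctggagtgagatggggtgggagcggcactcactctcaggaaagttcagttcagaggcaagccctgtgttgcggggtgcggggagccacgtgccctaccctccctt
TGFB3, second window: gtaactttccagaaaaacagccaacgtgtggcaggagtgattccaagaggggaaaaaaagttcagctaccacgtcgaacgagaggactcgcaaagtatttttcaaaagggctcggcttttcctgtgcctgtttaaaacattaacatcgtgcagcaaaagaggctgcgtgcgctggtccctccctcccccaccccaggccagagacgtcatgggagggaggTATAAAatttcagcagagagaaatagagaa
The second window holds TATAAA, in capitals, at bases -30 to -25, and the first matched none of the 7 motifs searched. Neither held the glucocorticoid core ACANNNTGT, and the counts do not tell the 2 starts apart.

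TGFB3 was at 9.24, 7.89 and 7.82 CPM in H9 vehicle and 6.36, 7.26 and 6.48 CPM in H9 dexamethasone. H1 had more of it, 17.3, 15.0 and 15.1 CPM in vehicle and 9.61, 11.1 and 10.1 CPM in dexamethasone. The treatments did not overlap in either line, and even the treated H1 cultures lay above all H9 cultures. The log2 difference with dexamethasone was -0.31 ± 0.13 in H9, -0.62 ± 0.12 in H1 and -0.47 ± 0.09 as the mean of both, and -0.49 ± 0.08 without H9 vehicle culture 3. IFT43 and TGFB3-AS1 overlap the gene on the opposite strand.

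TGFB2 (ENSG00000092969.11, chr1:218346235-218444619, plus strand) had the highest level of the 3 TGF-beta isoforms. It was at 66.5, 61.5 and 44.0 CPM in H9 vehicle and 65.3, 51.8 and 70.9 CPM in H9 dexamethasone. In H1 it was at 72.7, 56.4 and 68.1 CPM in vehicle and 44.5, 49.1 and 46.1 CPM in dexamethasone. The treatments overlapped in H9 and not in H1, with log2 differences of 0.13 ± 0.16 and -0.50 ± 0.16. The H9 value without vehicle culture 3 was -0.03 ± 0.12. TGFB2-OT1 overlaps the gene on the same strand.

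TGFB1 (ENSG00000105329.9, chr19:41301587-41353911, minus strand), the isoform best known from immune cells and wound healing, differed little. Its level was 16.0, 15.8 and 24.1 CPM in H9 vehicle, 17.6, 14.9 and 19.9 CPM in H9 dexamethasone, 19.4, 18.5 and 18.1 CPM in H1 vehicle and 15.9, 15.3 and 20.4 CPM in H1 dexamethasone. The treatments overlapped in both lines, and H9 vehicle culture 3 had the highest level of all. The log2 difference was -0.08 ± 0.18 in H9 and -0.12 ± 0.18 in H1, and without that culture it was 0.14 ± 0.13 in H9 and 0.01 ± 0.09 as the mean of both lines. TGFB1 is overlapped on the opposite strand by 4 genes, among them CCDC97 and HNRNPUL1.

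INHBA (ENSG00000122641.10, chr7:41667168-41705834, minus strand) encodes the subunit that pairs to form activin A, a ligand that signals to the same SMADs. It was at 17.1, 12.5 and 17.4 CPM in H9 vehicle, 18.6, 15.6 and 18.3 CPM in H9 dexamethasone, 15.9, 19.5 and 16.2 CPM in H1 vehicle and 9.30, 17.6 and 11.5 CPM in H1 dexamethasone. H1 dexamethasone culture 2, high in mesenchymal markers, stood above its sister cultures, and the treatments overlapped in both lines. The log2 difference was 0.16 ± 0.21 in H9 and -0.43 ± 0.21 in H1, where it was -0.73 without that culture. INHBA-AS1 overlaps the gene on the opposite strand.

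**Figure D3:**
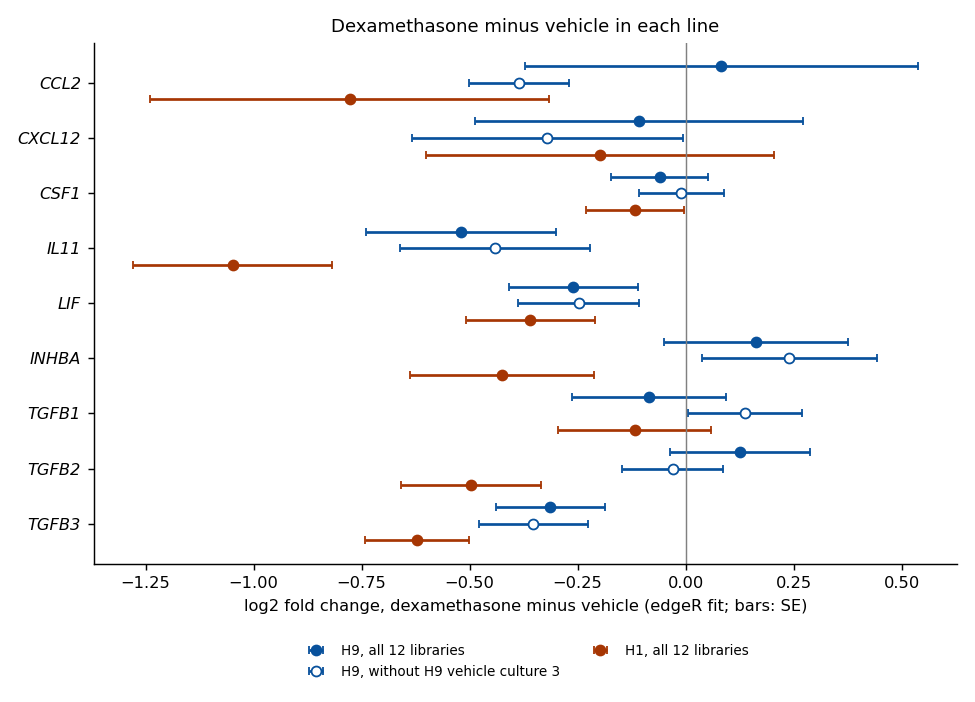
Log2 fold change between dexamethasone and vehicle with its standard error for each cytokine gene, in H9 with all libraries (filled blue), in H9 without vehicle culture 3 (open blue) and in H1 (red). All 9 H1 values lie below 0, and CCL2 in H9 moves from 0.08 to -0.39 when that library is left out.

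Counted over the set, the dexamethasone value was below 0 for 9 of 9 genes as the mean of both lines, for 9 of 9 in H1 and for 6 of 9 in H9, where CCL2, TGFB2 and INHBA were above 0. Over both lines the median of the set was -0.19 and that of all genes tested -0.01, with 9393 of 17819 genes below 0. Without H9 vehicle culture 3, 8 of 9 were below 0 over both lines, TGFB1 being the exception. In H9, IL11 and TGFB3 (2 of 9) had every treated library below every vehicle library, a state that 11.6% of all genes tested shared, and without vehicle culture 3 CCL2 joined them (3 of 9, against 15.3% of all genes). In H1 it was CCL2, IL11, LIF, TGFB2 and TGFB3 (5 of 9), against 6.98% of all genes. Since the choice of the genes used this contrast, nothing is read from these counts.

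Whether the effect of dexamethasone differed between the lines was tested as an interaction. It is another contrast than the one used to choose the genes but is built from the same effects, so it is not fully independent of the choice. With edgeR, 0 of 9 genes passed, as did 0% of all 17819 genes, and DESeq2 and limma-voom also called 0 of the 9. At an unadjusted p under 0.05 there was 1 gene of the set, TGFB2, whose H9 effect exceeded its H1 effect by 0.62 ± 0.23 log2 units (adjusted p = 0.548), against 7.46% of all genes tested. The H9 effect was above the H1 effect for all 9 genes, with a median difference of 0.31 log2 units where all genes had -0.01. Nothing is read from that shared direction, since the choice of genes may have leaned on either line. Again 0 of 9 passed without H9 vehicle culture 3, with CCL2, TGFB2 and INHBA (3 of 9) under an unadjusted p of 0.05, against 10.4% of all 18098 genes. A difference between the lines in the response of these genes was therefore not detected in these 12 libraries.

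The lines themselves differed in several of the cytokines. In the vehicle cultures CXCL12 was 1.38 ± 0.39 (SE) log2 units higher in H9 (edgeR adjusted p = 0.0133) and LIF 0.45 ± 0.15 units higher (adjusted p = 0.0261). TGFB3 was lower in H9, by a log2 value of -0.92 ± 0.12 (adjusted p = 9.02e-05). These 3 of 9 genes stand beside 46.9% of all genes tested, and nothing particular to the set is read from that count. TGFB3 passed whichever single library was left out. CXCL12 did not pass without H9 vehicle culture 1 (adjusted p = 0.0539) or H1 vehicle culture 1 (0.0566). LIF did not pass without H9 vehicle culture 1 (0.0811), H1 vehicle culture 1 (0.0808) or H1 vehicle culture 2 (0.0937).

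CCL2 did not pass in the vehicle cultures, at 0.38 ± 0.46 (adjusted p = 0.516). Without H9 vehicle culture 3 it was 0.85 ± 0.12 units higher in H9 (adjusted p = 1.36e-05), and 4 of 9 genes passed against 58.6% of all genes. IL11 was at 0.35 ± 0.22 (adjusted p = 0.196), TGFB2 at -0.19 ± 0.16 (0.342), INHBA at -0.14 ± 0.21 (0.623), CSF1 at 0.07 ± 0.11 (0.655) and TGFB1 at -0.01 ± 0.18 (0.968).

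In the dexamethasone cultures 5 of 9 genes passed, against 43.6% of all genes. The choice of CCL2, IL11 and TGFB3 used the counts of these treated cultures and of the vehicle cultures. The tests between lines in either treatment are therefore not fully independent of the choice. CXCL12 was 1.47 ± 0.40 units higher in H9 (adjusted p = 0.0104), CCL2 1.24 ± 0.47 (0.0479), IL11 0.88 ± 0.23 (0.00904) and LIF 0.55 ± 0.15 (0.0105), and TGFB3 was again lower, at -0.61 ± 0.12 (0.00171). CXCL12, IL11 and TGFB3 passed in all 12 fits that left out 1 library, and LIF failed only without H9 dexamethasone culture 3 (adjusted p = 0.0576). CCL2 passed in 2 of the 12, with adjusted p from 8.32e-08 to 0.133. The lowest came without H9 vehicle culture 3, where the CCL2 value was 1.24 ± 0.11. That culture is not in this contrast, but all libraries of a fit share 1 estimate of the spread. Without H9 vehicle culture 3, 7 of 9 genes passed against 64.6% of all genes, TGFB2 (0.43 ± 0.16 with all libraries, adjusted p = 0.05001, just above the threshold) and INHBA (0.45 ± 0.21, adjusted p = 0.106) being the additions. IL11 thus passed between treated cultures and not between vehicle cultures, and the test of that change, the interaction, did not pass.

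Over both treatments, CXCL12 and TGFB3 (2 of 9 genes) had no overlap between the 6 H9 and the 6 H1 libraries, as did 40.2% of all genes. CXCL12 spanned 10.81 to 21.7 CPM in H9 and 3.12 to 10.77 CPM in H1, so that its lines were separated only narrowly. TGFB3 spanned 6.36 to 9.24 CPM in H9 and 9.61 to 17.3 CPM in H1. The mesenchymal and proliferation marker sums lay higher in H1, the line with less CXCL12 and LIF and more TGFB3, and the astrocyte and pluripotency sums lay higher in H9, without overlap between the lines. Single markers of the mesenchymal, astrocyte and pluripotency lists did not all follow these sums. The part of these cell type markers in the differences was not tested.

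**Figure D4:**
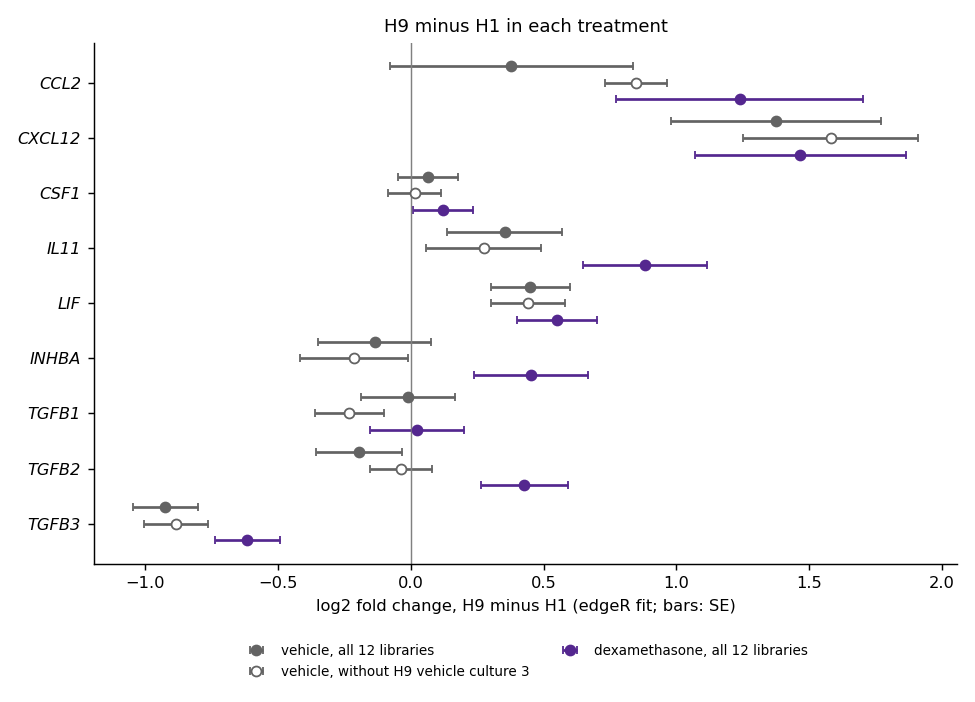
Log2 fold change between H9 and H1 with its standard error for each cytokine gene, in vehicle with all libraries (filled grey), in vehicle without H9 vehicle culture 3 (open grey) and in dexamethasone (purple). CXCL12 and LIF lie above 0 and TGFB3 below 0 in each case, and CCL2 in vehicle moves from 0.38 to 0.85 without that library.

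Levels of different genes were compared as CPM per kilobase of annotated exon. In H1 vehicle CCL2 was highest at 22.9 ± 1.5 (SD, n = 3) CPM per kilobase, followed by TGFB2 at 12.8 ± 1.6 and CSF1 at 10.6 ± 0.70, which did not differ beyond their spread. TGFB1 followed at 5.77 ± 0.19, LIF at 4.57 ± 0.40, TGFB3 at 3.22 ± 0.26 and INHBA at 2.07 ± 0.24. IL11 at 1.05 ± 0.22 and CXCL12 at 1.02 ± 0.66 were lowest and lay within each other's spread. In H9 vehicle CCL2 again had the highest mean, at 29.6 ± 20 with all cultures and 41.2 over cultures 1 and 2. Next were TGFB2 at 11.1 ± 2.3 and CSF1 at 11.1 ± 0.93, both within the spread of CCL2 over all cultures. LIF was at 6.25 ± 0.44 and TGFB1 at 5.75 ± 1.5 there, which lay within each other's spread. Lower down came CXCL12 at 2.64 ± 0.90 CPM per kilobase, INHBA at 1.89 ± 0.33, TGFB3 at 1.69 ± 0.16 and IL11 at 1.35 ± 0.15. The spreads of CXCL12, INHBA and TGFB3 overlapped, and IL11 lay below them.

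The receptors of these ligands were mostly present. CXCR4 was at 15.3 to 18.0 CPM per kilobase in the vehicle groups and ACVR1B, an activin receptor, at 19.2 to 19.8. IL6ST, the shared chain of IL11 and LIF, was at 14.8 and 14.9, LIFR at 13.3 and 12.8, and IL11RA, the chain specific to IL11, lower at 1.75 and 1.78 CPM per kilobase in H9 and H1 vehicle. CCR2, the receptor of CCL2, was listed at 0 in all 12 libraries, where 3 counts would amount to 0.109 to 0.203 CPM per library. CSF1R, the receptor of CSF1 and a microglial marker, had 0 to 0.340 CPM and was too low to test. Since SOX2 too was listed at 0, these values are given as listed and not compared with those of the ligands.

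**Figure D5:**
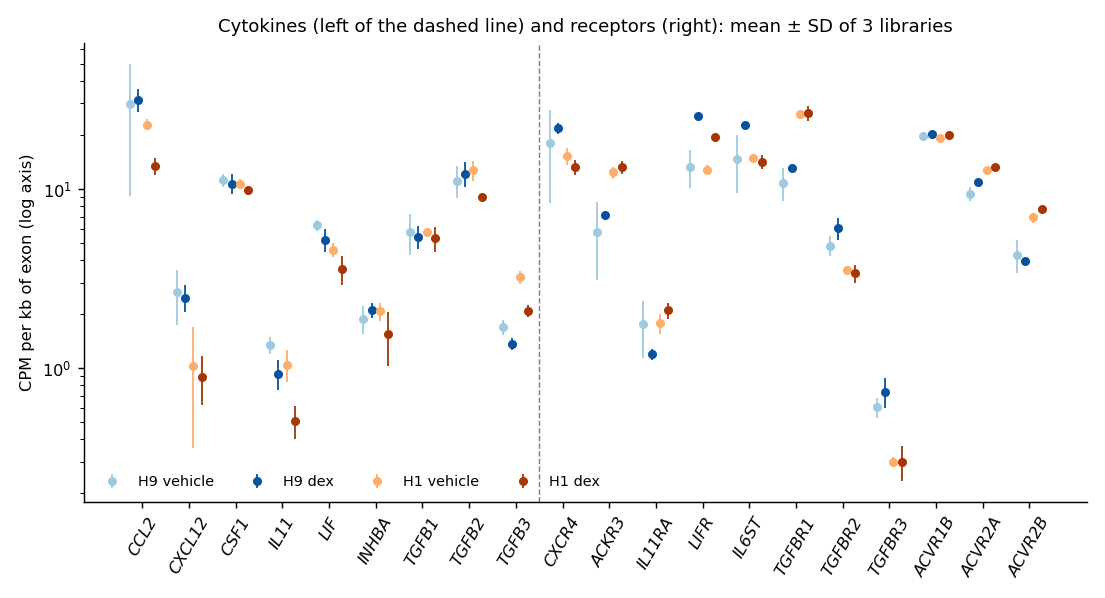
Mean and SD over 3 libraries of the CPM per kilobase (log axis) of the 9 ligand genes and of the 11 receptor genes that could be tested, by group. LIFR is higher in dexamethasone than in vehicle in both lines, and TGFBR1 is higher in H1 than in H9.

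A list of 78 other genes of these pathways covered receptors, activators and inhibitors of TGF-beta, SMAD, JAK-STAT3 and NF-kB genes and related ligands, and 64 of them passed the filter. Their dexamethasone contrast was tested, apart from LIFR, whose rise was known when the list was made. The list was made with earlier results of these data known, so the test is not fully independent of them. Of the other 63, over both lines 0 rose and 0 fell with edgeR (threshold 0.05), against 0.101% of all genes tested. At an unadjusted p under 0.05 there were 8 of the 63, against 7.49% of all genes, and DESeq2 called 2 and limma-voom 0 of them. The list's median log2 value was 0.02, and that of all genes -0.01.

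LIFR, the receptor of LIF, is given as a description. It was at 193, 163 and 118 CPM in H9 vehicle and 308, 305 and 297 CPM in H9 dexamethasone, and at 163, 145 and 149 CPM in H1 vehicle and 236, 235 and 223 CPM in H1 dexamethasone. The treatments did not overlap in either line. The log2 difference was 0.77 ± 0.10 over both lines, and 0.69 to 0.88 when any 1 library was left out.

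Without H9 vehicle culture 3, 3 of 64 pathway genes other than LIFR rose and 0 fell, against 0.774% of all genes. Among them were ITGB8, an integrin subunit that activates latent TGF-beta (0.38 ± 0.06, 0.00628), and NFKBIA, the inhibitor that holds NF-kB in the cytoplasm (0.34 ± 0.06, 0.0155). With all libraries ITGB8 stood at 0.46 ± 0.11 (adjusted p = 0.244) and NFKBIA at 0.45 ± 0.13 (0.476). At an unadjusted p under 0.05, which 7.49% of all genes reached with all libraries, there were 5 of 17 SMAD genes, 2 of 13 TGF-beta activators and inhibitors, 1 of 9 NF-kB genes and 0 of 11 JAK-STAT3 genes.

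Between the lines in vehicle, 39 of the 64 pathway genes passed, 19 higher and 20 lower in H9, against the 46.9% of all genes given above. Of the 11 receptors tested, TGFBR3, a coreceptor that presents TGF-beta (1.01 ± 0.20, adjusted p = 0.00153), and the type II receptor TGFBR2 (0.45 ± 0.14, 0.0179) were higher in H9. TGFBR1, the type I receptor (-1.27 ± 0.14, 1.98e-05), ACKR3 (-1.09 ± 0.27, 0.00566) and the activin receptors ACVR2B (-0.69 ± 0.13, 0.000944) and ACVR2A (-0.43 ± 0.09, 0.00163) were lower. CXCR4 (0.25 ± 0.32), LIFR (0.05 ± 0.14), ACVR1B (0.05 ± 0.08), IL6ST (-0.01 ± 0.20) and IL11RA (-0.04 ± 0.21) did not pass. Without H9 vehicle culture 3, CXCR4 (0.62, adjusted p = 8.89e-05), IL6ST (0.24, 0.0299) and LIFR (0.23, 0.0156) were also higher in H9. In the dexamethasone cultures 9 of the 11 receptors passed, against the 43.6% of all genes given above. The 6 receptors that passed in vehicle kept their direction, IL6ST (0.69 ± 0.20, adjusted p = 0.0162) and LIFR (0.39 ± 0.14, 0.0460) were also higher in H9, and IL11RA (-0.81 ± 0.21, 0.00846) was lower.

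Of the 13 genes that activate or hold back TGF-beta and activin, 3 were higher and 5 lower in H9. The higher ones were the latent TGF-beta binding protein LTBP3 (0.90 ± 0.23), the activin subunit INHBB (0.78 ± 0.25) and THBS1, an activator of latent TGF-beta (0.43 ± 0.15). LTBP3 was at 139, 146 and 292 CPM in H9 vehicle cultures 1, 2 and 3. Its log2 value was 0.47 to 1.06 when any 1 library was left out, and LTBP3 passed in all 12 of these fits. The lower ones were led by follistatin, FST, which binds activin (-2.21 ± 0.23), LRRC32, which tethers latent TGF-beta to the cell surface (-2.06 ± 0.36), and LTBP1 (-0.81 ± 0.13). Genes of TGF-beta reception and activation thus differed between the lines in both directions.

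Of the 17 SMAD pathway genes and targets, 4 were higher in H9, led by CCN2 (1.36 ± 0.29), a matrix-associated protein, SMAD3 (1.02 ± 0.15) and the decoy receptor BAMBI (0.75 ± 0.18), and 8 were lower. TGFBI (-6.66 ± 0.56) and COL1A1 (-5.46 ± 0.38), extracellular matrix genes, and SMAD4 (-1.28 ± 0.20), the partner of the receptor-activated SMADs, led these. TGFBI averaged 0.825 CPM in H9 vehicle and 92.9 CPM in H1 vehicle. COL1A1 averaged 32.05 and 1406 CPM, and it is itself one of the 8 mesenchymal markers that summed higher in H1. The part of that marker sum in these values was not tested.

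Of 11 JAK-STAT3 genes, 6 were higher in H9, led by JUNB (1.78 ± 0.12), an AP-1 subunit, the kinase PIM1 (0.90 ± 0.14) and BCL3 (0.79 ± 0.27), and 1 was lower, the feedback inhibitor SOCS3 (-0.50 ± 0.14). Of 9 NF-kB genes, 2 were higher, among them the subunit RELB (1.27 ± 0.22), and the adhesion molecule ICAM1 (-1.24 ± 0.37) was lower. Of 3 IL6 family ligands tested, 1 was higher and 1 lower, the latter being CNTF (-0.57 ± 0.21), and IL34, the other ligand of CSF1R, was higher (0.80 ± 0.29, adjusted p = 0.0394). CNTF (adjusted p = 0.0708) and IL34 (0.108) did not pass without H9 vehicle culture 3. Of the 12 fits that left out 1 library, IL34 passed in 4, CNTF in 6, THBS1 in 7 and BCL3 in 9. SOCS3 and the receptor TGFBR2 passed in 10, and ICAM1 and INHBB in 11.

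To find genes with a like pattern, log2 CPM with the line means removed was correlated with each of CCL2, IL11 and TGFB3 over the 12 libraries, among 14819 genes of mean CPM of at least 1. The gene most like IL11 was LIF, the other IL6 family member of the set (Pearson r = 0.88, with 0.89 within the 6 H9 and 0.88 within the 6 H1 libraries), followed by ILDR2 (0.87) and P3H2 (0.87). For TGFB3 the nearest were CACHD1 (0.92) and SNTB1 (0.92). For CCL2 they were CA2 (0.99), L3HYPDH (0.98) and TOM1L1 (0.98), with 0.95, 0.90 and 0.89 over 11 libraries without H9 vehicle culture 3. IL11, also chosen for its fall with dexamethasone, was closer to CCL2 over those 11 libraries (0.97, against 0.16 over all 12). Which genes were nearest to CCL2 thus depended on that library. The points share libraries, depth and treatment, so these values are a description of 12 libraries.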

How the data were processed

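The deposited values are raw gene counts, 1 file per library, in whole numbers without normalization. The submitters' processing notes name STAR 2.5.3a, HTSeq without a version, hg38 and GRCh38.p10. Annotation and strand settings: not given in the sources used here. Groups and culture numbers came from the labels, and neither flow cell nor batch is given per library. No pair of sister cultures agreed within sampling noise.

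Genes were filtered with filterByExpr and scaled by TMM in edgeR 4.0.16 (R 4.3.3). The quasi-likelihood F-test used 1 mean per group over all 12 libraries, with 8 residual degrees of freedom, Benjamini-Hochberg adjustment over all 17819 genes and a threshold of 0.05. A standard error is the log2 fold change over the root of its F. Replicates are sister cultures, and p-values therefore measure only the spread among those. Limits from counts cover counting error only. Symbols, positions and exon lengths are from GENCODE 29. Promoter sequences are from the RefSeq table (GRCh38.p14), which matched 6 of the 9 genes.

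The 9 genes and the pathway lists were chosen with earlier results of these data known. Genes named beyond the 9 are all tested receptors and, in each list and contrast, up to 3 higher and 3 lower genes past the threshold by size of change, with mean CPM of at least 1, plus CCR2, CSF1R and genes outside this rule that changed with H9 vehicle culture 3. Some genes that the rule takes in are not reported here. Alternatives were DESeq2 1.42.0, limma-voom (limma 3.58.1), RLE size factors, no filter on low counts, CPM of at least 1 in 3 libraries, library sizes without mitochondrial and the 20 most abundant genes, culture number as a block, each line fitted alone, and each library left out in turn. Figures were drawn in matplotlib 3.10.9.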

Additional observations from a re-analysis of the deposited data

How the results depend on the processing

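The count of cytokine genes that passed between H9 and H1 in vehicle was 3 with the test as reported, 2 without a filter on low counts, and 1 to 4 when 1 library was left out. In dexamethasone it was 5, between 4 and 6 under the other tools, scalings and filters, and 3 to 7 when 1 library was left out. Of the pathway genes 39 passed between lines in vehicle, with 36 to 42 under the alternatives and 33 to 45 without 1 library. With dexamethasone 1 pathway gene passed, LIFR, whose rise was known beforehand, 3 with DESeq2 (LIFR and ITGB8 among them), 2 with no filter on low counts (LIFR among them), and 0 to 4 without 1 library; the cause was not tested. The interaction called 0 of the 9 genes in every alternative. All 9 cytokine genes had a negative dexamethasone value over both lines in each alternative, and 8 or 9 had one without 1 library. Of 1690 values of single genes under the 21 alternatives, 57 lost and 12 gained a call, and 0 calls changed sign. Among the untested dexamethasone values 3 moved by more than the spread between cultures, TGFB3 in H9 without vehicle culture 1 (-0.19), CXCL12 in H1 without vehicle culture 2 (0.47) and INHBA in H1 without dexamethasone culture 2 (-0.73). The CCL2 difference between lines in dexamethasone had adjusted p of 0.0744 with limma-voom, 0.0583 with library sizes without the most abundant genes and 0.0622 with the block. Same-numbered cultures of a line had deviations that correlated at -0.01 to 0.18, so the numbers were not taken to pair the cultures, although 7 of 12 libraries correlated best with their own number. With a replicate block 5 cytokine genes passed in dexamethasone, 38 pathway genes between lines in vehicle and 1 pathway gene with dexamethasone. IL11, with 28 to 88 reads per library, is the gene whose precision depth limits most.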

Other observations

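Other inflammatory cytokines had few or no counts listed in these libraries. SOX2 was also listed at 0 in all 12, so a listed 0 is not read as absence. TNF, the founding member of its family, the chemokine CCL5 and the colony stimulating factor CSF2 were listed at 0 in all 12 libraries. IL6 had at most 0.0493 CPM, IL1B at most 0.117 CPM and CXCL1 at most 0.122 CPM. CXCL8, a neutrophil chemokine, had 0.117 to 0.460 CPM with the groups overlapping. OSM, another IL6 family ligand, had at most 0.193 CPM, and CSF3 at most 0.0424 CPM. All of these lay below the filter on low counts, so no difference between groups was tested for them.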
